A study of Mus musculus with 31 samples.

Results

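The enzymes of the pentose phosphate pathway in mouse liver were followed through 10 genes picked by name, with every array probe that carries 1 of these names. G6pdx, H6pd, Pgls and Pgd stand for the oxidative branch, Rpia, Rpe, Tkt and Taldo1 for the non-oxidative branch, and Me1 and Idh1 for other sources of NADPH. The 10 genes were among 23968 gene names with a probe above the signal filter, and their 22 probes, all of which passed it, were among 36059. Livers came from 31 male C57BL6/J mice, with 1 one-color Agilent array per mouse, which reads each mRNA as the fluorescence of its probe. In the total ChREBP-KO line Mlxipl, the gene of the carbohydrate-sensing transcription factor ChREBP, is null, so that both isoforms are missing, and 7 such mice were set against 8 of their WT littermates. In the other line the exon used only by the shorter isoform, ChREBPβ, was deleted by genome editing, and 8 ChREBPβ-deficient mice were set against 8 of their own WT littermates. Both deletions are present in all tissues, and the ages of the mice are not given in the sources used here. Every mouse, WT included, had no food for 24 hours and was then refed for 18 hours, with 20% glucose added to its water. One question was addressed for each gene, whether its mRNA changed with loss of both ChREBP isoforms and with loss of the β isoform alone. No group lacked only the other isoform, so dependence on that isoform cannot be told apart from dependence on either.

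The pathway starts from glucose-6-phosphate, the same compound that feeds glycolysis. Its oxidative branch strips off a carbon and charges NADPH, the reducing power that fatty acid synthesis, cholesterol synthesis and the glutathione system draw on. Its non-oxidative branch shuffles the sugar phosphates that result and can return them to glycolysis or supply ribose for nucleotides, in either direction. In liver the pathway is known for its rise after a carbohydrate meal, together with fatty acid synthesis, and cytosolic malic enzyme and isocitrate dehydrogenase are the other textbook suppliers of cytosolic NADPH.

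The promoters of the 5 members whose leading probe was at least 1.5-fold lower without ChREBP are shown. Members that fell in the same comparison can thus be compared in sequence. The leading probe of a gene is its probe with the highest mean signal over all arrays. Each line gives 250 bases before the transcript start and the first 10 bases from it, 5′ to 3′ in the gene's own direction, as RefSeq lists them on GRCm38.p6, using the start listed first where a gene has 2. Me1 is at chr9:86695905-86696164 (minus strand), Rpia at chr6:70792166-70792425 (minus strand), Pgd at chr4:149166696-149166955 (minus strand), Tkt at chr14:30548881-30549140 (plus strand) and G6pdx at chrX:74428871-74429130 (minus strand). Capitals mark, on either strand, the antioxidant response element core TGACNNNGC, the GC box GGGCGG and the box CCAAT.
Me1: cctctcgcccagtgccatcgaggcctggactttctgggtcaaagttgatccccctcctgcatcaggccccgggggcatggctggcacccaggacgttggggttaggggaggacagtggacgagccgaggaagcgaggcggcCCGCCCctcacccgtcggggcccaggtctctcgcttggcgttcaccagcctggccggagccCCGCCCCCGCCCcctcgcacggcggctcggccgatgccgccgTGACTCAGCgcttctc
Rpia: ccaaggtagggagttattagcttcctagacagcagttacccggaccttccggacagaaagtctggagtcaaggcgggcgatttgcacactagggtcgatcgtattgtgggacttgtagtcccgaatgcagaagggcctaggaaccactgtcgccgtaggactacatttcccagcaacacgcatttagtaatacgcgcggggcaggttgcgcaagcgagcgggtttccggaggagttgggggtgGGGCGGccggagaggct
Pgd: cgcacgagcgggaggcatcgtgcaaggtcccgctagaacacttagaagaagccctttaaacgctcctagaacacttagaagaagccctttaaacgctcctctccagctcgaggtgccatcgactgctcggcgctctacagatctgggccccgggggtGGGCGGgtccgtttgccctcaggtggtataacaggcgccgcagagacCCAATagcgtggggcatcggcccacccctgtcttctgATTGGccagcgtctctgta
Tkt: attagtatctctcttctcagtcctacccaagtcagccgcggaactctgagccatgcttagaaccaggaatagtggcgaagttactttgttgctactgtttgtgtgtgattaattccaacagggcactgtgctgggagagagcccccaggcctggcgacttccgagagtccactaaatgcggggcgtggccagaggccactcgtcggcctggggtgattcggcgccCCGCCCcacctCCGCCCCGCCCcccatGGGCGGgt
G6pdx: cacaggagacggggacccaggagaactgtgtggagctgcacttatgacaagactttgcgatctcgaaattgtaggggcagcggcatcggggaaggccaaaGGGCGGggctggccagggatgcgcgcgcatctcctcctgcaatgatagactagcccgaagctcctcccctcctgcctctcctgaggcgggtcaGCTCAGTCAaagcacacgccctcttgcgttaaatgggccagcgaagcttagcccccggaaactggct
All 10 members were in the promoter table, with 13 starts. The carbohydrate response element, searched by its consensus on both strands, was in none of the 13 windows and in 0.0974% of all 32851 windows of the same length. The E-box CACGTG was likewise in 0 of 13, against 6.34% of all windows, and the sterol response element-like letters TCACNCCAC in 0 of 13, against 1.1%. These letters are not in the windows searched, which says nothing about binding elsewhere. TGACNNNGC was in the windows of Me1, where it begins 6 bases before the start, and of G6pdx, against 10.7% of all windows. GGGCGG was in 10 of the 13 windows, against 33.4% of all windows, and CCAAT in 5 of 13, against 34.6%.

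The arrays correlated with each other at 0.980 to 0.999, lay on 15 slides and were scanned on 2 days, each of which held mice of all 4 groups. Mlxipl was read by 3 probes. On the first probe the total ChREBP-KO mice lay at 13.89 to 14.30 (log2 signal) and their WT littermates at 15.14 to 15.48, a log2 difference of -1.16 (exact permutation p = 0.000155, two-sided). The ChREBPβ-deficient mice lay at 14.40 to 14.84 on it and their WT littermates at 14.88 to 15.33, a log2 difference of -0.45 (exact permutation p = 0.000155). Neither pair of groups overlapped on this probe. A second probe differed by -0.59 (exact permutation p = 0.0014) in the total ChREBP line and by -0.46 (exact permutation p = 0.0143) in the ChREBPβ line, with overlapping groups, and the third by -0.05 and -0.06. Where the probes lie relative to the deleted parts was not settled here, so this check covers the labels only in part. All 5 hepatocyte markers were kept, with Cyp2e1 (0.69) and Ttr (0.17) higher in total ChREBP-KO mice. The log2 of the summed signal of the 5 was 20.41 to 20.49 in WT mice of the total ChREBP line and 20.58 to 20.63 in total ChREBP-KO mice. Alb was at 18.96 in all 4 groups, since quantile normalization gives a probe of the same rank the same value on every array. The sum thus cannot show a change in Alb. Exocrine pancreas markers, 3 of 6 kept, summed to 11.31 to 14.17 in WT mice of the total ChREBP line and 11.22 to 12.12 in total ChREBP-KO mice, and Ctrb1 was lower in the KO (-0.77). Adipocyte markers summed to 9.06 to 11.91 and 8.97 to 13.20 in the same groups, with 0 of 4 kept genes called, and Adipoq not kept. In the ChREBPβ line they summed to 10.35 to 12.18 in WT littermates and 10.96 to 13.53 in ChREBPβ-deficient mice. There Cfd (2.04) and Cidec (0.89) were higher and Plin1 (-0.08) and Lep (-0.13) lower, all without a call. Alas2 of the red blood cell list (0.34) and Dcn of the stellate cell list (0.40) were higher in total ChREBP-KO mice. No macrophage, lymphocyte or endothelial marker was called. The part of these other cells in the results was not tested. In RNA from whole liver, fewer cells of a type and less RNA per cell cannot be told apart.

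Without both isoforms mRNAs of both branches were lower. Of the 22 probes, 15 were lower in total ChREBP-KO mice than in WT littermates, where 14.6% of all probes were lower, and 2 were higher, where 14.5% of all probes were higher (limma, adjusted p under 0.05). The 15 include a Tkt probe that was not well above background in any KO mouse and passed the signal filter only through the other groups. By gene, 8 of 10 had a lower probe, Pgls alone had a higher one, and no probe of Rpe passed. Me1, Rpia and Pgd fell 9.04-fold, 4.47-fold and 3.47-fold, and the other 5 genes that fell did so by 1.16-fold (Taldo1) to 1.73-fold (Tkt). On 6 probes every KO mouse lay below every WT mouse, against 4.14% of all probes, and on 1 probe every KO mouse lay above, against 3.26%. The median log2 difference was -0.31 over the 22 probes and 0.0083 over all probes.

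**Figure D1:**
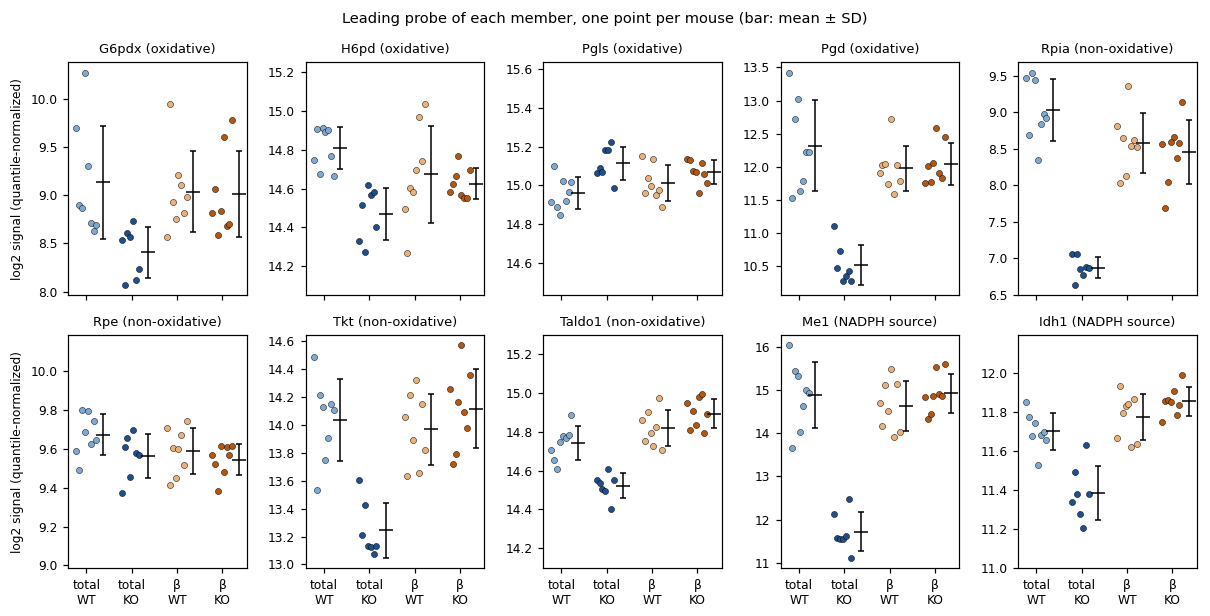
Log2 signal of the leading probe of each of the 10 genes (vertical axis, quantile-normalized, separate range per panel), 1 point per mouse in the 4 groups of 7 or 8 mice, with mean and SD as a bar beside the points. The total ChREBP-KO points of Me1, Rpia and Pgd sit clear of all other points, while the points of the ChREBPβ line overlap in all 10 panels.

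In the oxidative branch both dehydrogenases that make NADPH in the cytosol fell. Pgd encodes 6-phosphogluconate dehydrogenase, the last step of the branch, and its leading probe (mm9 chr4:148524293-148524352, minus strand) ranged from 11.53 to 13.42 with a median of 12.23 in WT littermates and from 10.27 to 11.12 with a median of 10.43 in total ChREBP-KO mice. All 7 KO mice were below the lowest WT mouse, and the WT mice themselves covered almost 2 log2 units. The log2 difference was -1.80 (SE 0.22, adjusted p = 1.77e-07). The other probes of Pgd, assigned to other transcripts of the gene, gave -0.40 (adjusted p = 0.00362) and -0.10 (adjusted p = 0.419). The first of these lost its call with median signals scaled to their 75th percentile (-0.32, adjusted p = 0.0507). Both were dim, with median signals of 30 to 81 and 27 to 66 before normalization, against 1215.5 to 12436 for the leading probe. Background medians of the arrays were 15 to 33, so a smaller difference on these probes need not mean a weaker response. G6pdx encodes glucose-6-phosphate dehydrogenase, the step that commits glucose to the pathway, and its only probe (mm9 chrX:71654949-71655008, minus strand) lay between 8.63 and 10.27 with a median of 8.88 in WT littermates and between 8.07 and 8.74 with a median of 8.53 in total ChREBP-KO mice. The ranges overlapped, and WT replicates 4 and 1, at 10.27 and 9.70, stood above the rest. Its log2 difference was -0.72 (SE 0.22, adjusted p = 0.0126), a 1.65-fold lower level that ranged from -0.80 to -0.56 when any 1 mouse was left out. On the first scan day the difference was -0.99 and on the second -0.47.

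H6pd and Pgls moved little and in opposite directions. H6pd encodes the hexose-6-phosphate dehydrogenase of the endoplasmic reticulum, which keeps a separate NADPH pool there. Its probe (mm9 chr4:149353626-149353685, minus strand) ranged from 14.66 to 14.91 with a median of 14.83 in WT littermates and from 14.27 to 14.62 with a median of 14.52 in total ChREBP-KO mice, without overlap. H6pd thus differed by -0.34 on the log2 scale (SE 0.08, adjusted p = 0.00177), or 1.26-fold. Pgls encodes the lactonase between these dehydrogenases, and it was the only member that rose. Its leading probe (mm9 chr8:74120108-74120166, plus strand) lay between 14.85 and 15.10 with a median of 14.94 in WT littermates and between 14.99 and 15.22 with a median of 15.09 in total ChREBP-KO mice, with overlapping ranges. The log2 difference was 0.15 (SE 0.05, adjusted p = 0.0127), and it kept its sign but not its call when each array was scaled to its 75th percentile (0.11 for processed signals, adjusted p = 0.0850, and 0.11 for median signals, adjusted p = 0.125). A Pgls probe whose ends lie 915 bases apart on mm9 gave 0.17 (SE 0.04, adjusted p = 0.0034) with no overlap between groups, and kept its call under both scalings. The third Pgls probe gave 0.19 (adjusted p = 0.0650), and its adjusted p ranged from 0.0287 to 0.132 when 1 mouse was left out.

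In the non-oxidative branch 3 of 4 genes fell, with Rpia far ahead. Rpia encodes ribose-5-phosphate isomerase, which turns the product of the oxidative branch into ribose-5-phosphate. The leading Rpia probe (mm9 chr6:70716013-70716072, minus strand) ranged from 8.35 to 9.55 with a median of 8.96 in WT littermates and from 6.64 to 7.06 with a median of 6.87 in total ChREBP-KO mice. The groups were more than 1 log2 unit apart at their nearest mice. The log2 difference was -2.16 (SE 0.19, adjusted p = 3.68e-10), and its second probe, of another transcript, gave -1.25 (SE 0.16, adjusted p = 6.24e-07), also without overlap. Tkt encodes transketolase, the thiamine-dependent enzyme that moves pieces of 2 carbons between sugars. Its leading probe (mm9 chr14:31386641-31386700, plus strand) ranged from 13.53 to 14.49 with a median of 14.12 in WT littermates and from 13.07 to 13.61 with a median of 13.13 in total ChREBP-KO mice. Only the lowest WT mouse and the highest KO mouse crossed. On this probe Tkt was lower by a log2 difference of -0.79 (SE 0.13, adjusted p = 2.57e-05), or 1.73-fold. A second Tkt probe, of a different transcript, was well above background in 6 of 8 WT mice but not in any of the 7 KO mice. This gives at least a 1.23-fold lower level. The probe passed the signal filter only through the other groups. Its limma call is on the measured values, not on this bound, and is no separate support (adjusted p = 0.00516, and 0.0618 with median signals scaled to their 75th percentile). The third Tkt probe, at -0.20 (adjusted p = 0.0428), lost its call without any 1 of 8 mice, replicates 2, 4, 5 and 7 of the KO group and 4, 5, 6 and 7 of the WT group, with -0.16 (adjusted p = 0.105) at the least.

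Taldo1 and Rpe, which complete the non-oxidative branch, differed from WT by less than 1.2-fold. Taldo1 encodes transaldolase, the partner of transketolase in carbon exchange. The leading Taldo1 probe (mm9 chr7:148588764-148588823, plus strand) lay between 14.61 and 14.88 with a median of 14.76 in WT littermates and between 14.40 and 14.61 with a median of 14.54 in total ChREBP-KO mice. Only the highest KO mouse reached the lowest WT mouse, and the log2 difference was -0.22 (SE 0.05, adjusted p = 5.64e-04). Its second probe, with ends 175 bases apart on mm9, gave -0.22 as well (SE 0.06, adjusted p = 0.0047), and -0.19 (adjusted p = 0.0540) with slide as a fixed block. Rpe encodes ribulose-phosphate epimerase, which makes xylulose-5-phosphate. Its leading probe (mm9 chr1:66766021-66766080, plus strand) ranged from 9.49 to 9.80 with a median of 9.67 in WT littermates and from 9.37 to 9.70 with a median of 9.58 in total ChREBP-KO mice, which overlapped over most of that span. The log2 difference was -0.11 (95% interval -0.23 to 0.01, adjusted p = 0.163), and the other Rpe probes gave -0.06 and -0.02. On the processed signal scaled to the 75th percentile the leading probe was -0.16 (adjusted p = 0.0433).

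Among the other NADPH sources Me1 changed most and Idh1 little. Me1 encodes the cytosolic malic enzyme, which oxidizes malate to pyruvate and yields NADPH for fatty acid synthesis. The leading Me1 probe (mm9 chr9:86475077-86475136, minus strand) ranged from 13.65 to 16.04 with a median of 14.98 in WT littermates and from 11.11 to 12.49 with a median of 11.57 in total ChREBP-KO mice. Every KO mouse was over 1 log2 unit below every WT mouse, and the WT mice were spread over more than 2. Me1 had a log2 difference of -3.18 (SE 0.29, adjusted p = 6.79e-10), and the second probe gave -3.14 (SE 0.25, adjusted p = 1.07e-10). Idh1 encodes the cytosolic isocitrate dehydrogenase. Its leading probe (mm9 chr1:65206035-65206094, minus strand) ranged from 11.53 to 11.85 with a median of 11.69 in WT littermates and from 11.20 to 11.63 with a median of 11.38 in total ChREBP-KO mice, and the ranges overlapped. Idh1 had a log2 difference of -0.32 (SE 0.06, adjusted p = 1.09e-04) and that of the second probe -0.30 (SE 0.09, adjusted p = 0.0131). This second probe lost its call when slides were fitted as fixed effects (-0.29, adjusted p = 0.104) and under the exact Mann-Whitney test (adjusted p = 0.0742). Within each scan day the leading probes of all 10 members kept the sign of the pooled difference between total ChREBP-KO and WT mice, with Me1 at -3.42 and -2.92, Rpia at -2.39 and -1.94, Pgd at -2.02 and -1.61, and Tkt at -0.75 and -0.87.

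**Figure D2:**
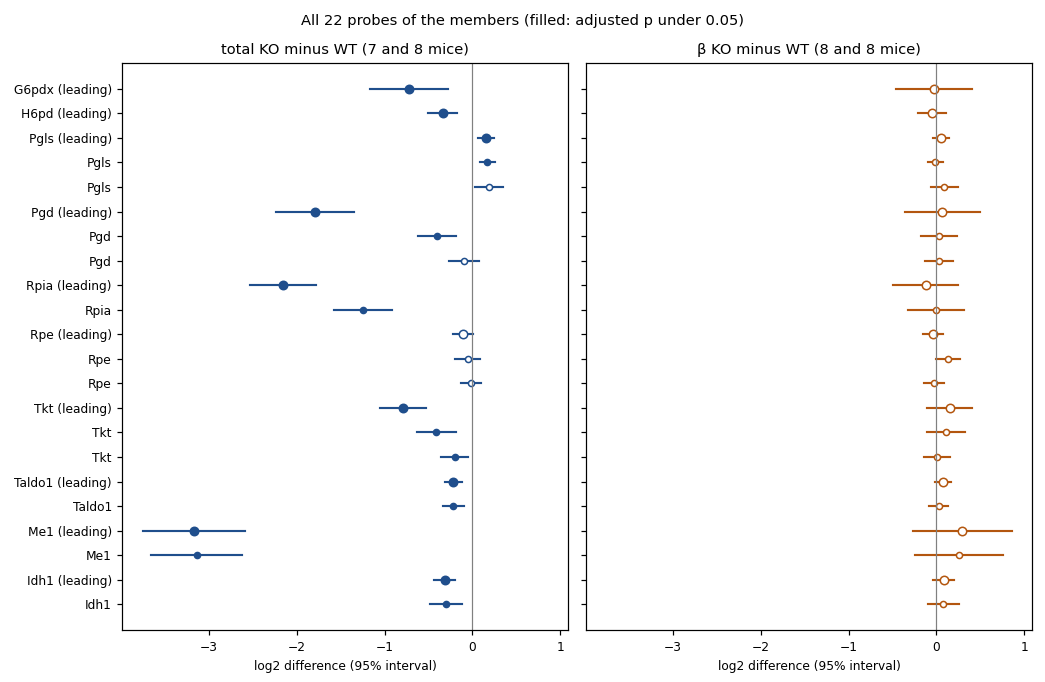
Log2 difference between knockout mice and their WT littermates for all 22 probes, with 95% intervals from limma, at left for loss of both isoforms (7 against 8 mice) and at right for loss of ChREBPβ (8 against 8). Filled points have an adjusted p under 0.05, which holds for 17 probes at left and 0 at right. Those at left include a Tkt probe that was not well above background in any total ChREBP-KO mouse.

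The branches were compared as a mean over their genes for each mouse, on the leading probes and relative to the WT littermates of the same line, as a description without a test. In total ChREBP-KO mice the oxidative branch stood at -0.68 ± 0.10 (SD, n = 7), within -0.83 to -0.55, and the non-oxidative branch at -0.82 ± 0.07 (SD, n = 7), within -0.89 to -0.71. Me1 and Idh1 together stood at -1.75 ± 0.27 (SD, n = 7). The WT littermates spread by an SD of 0.27, 0.17 and 0.41 around 0 in the same order, and no KO mouse reached the lowest WT mouse in any of the 3 means. Both branches were carried by 1 or 2 genes, Pgd and G6pdx in the oxidative and Rpia and Tkt in the non-oxidative branch. With all probes of a gene averaged instead, the branches stood at -0.41 and -0.61. In that average the dim probes of Pgd and Tkt count as much as the leading ones. Their mean signals lay at percentiles 17.8 and 14.3 (Pgd) and 2.15 and 26.3 (Tkt) of all probes. Their part in the shift was not tested.

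**Figure D3:**
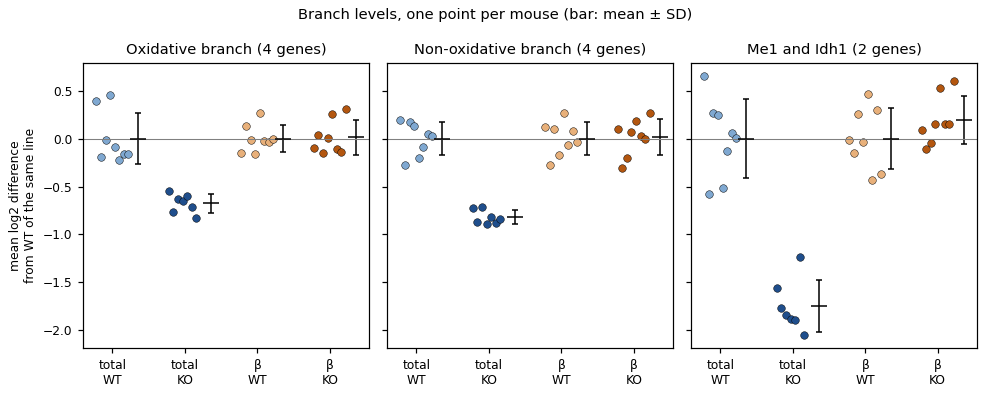
Mean log2 difference from the WT littermates of the same line over the leading probes of the oxidative branch, the non-oxidative branch and the pair Me1 and Idh1, 1 point per mouse with mean and SD as a bar beside the points. All 7 total ChREBP-KO mice lie at -0.55 or lower in all 3 panels, while the ChREBPβ-deficient mice spread around 0 in both branches and 6 of 8 lie above 0 for Me1 and Idh1.

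Loss of ChREBPβ alone gave no call among the members. None of the 22 probes passed (limma, adjusted p at least 0.989). Over all probes 1 was called (0.00277%), the first probe of Mlxipl itself. That call was lost, leaving 0, with slide as a fixed block, with the replicate number as a block and with each line fitted alone. At an unadjusted p under 0.05 (limma) 1 of the 22 passed, where 4.98% of all probes did. It was a second Rpe probe, at 0.14 (unadjusted p = 0.0498). No probe separated the groups without overlap, against 0.0222% of all probes. Me1 ranged from 14.34 to 15.62 with a median of 14.87 in ChREBPβ-deficient mice and from 13.93 to 15.50 with a median of 14.61 in WT littermates. Their ranges overlapped over most of their length, and the log2 difference was 0.29 (95% interval -0.27 to 0.86). Pgd was at 0.07 (95% interval -0.36 to 0.49), Rpia at -0.12 (-0.49 to 0.25), Tkt at 0.15 (-0.11 to 0.41) and G6pdx at -0.03 (-0.46 to 0.41). The interval was widest for Me1, and narrower ones bound Taldo1 (-0.02 to 0.17), Idh1 (-0.03 to 0.20), Pgls (-0.03 to 0.15), Rpe (-0.16 to 0.07) and H6pd (-0.21 to 0.11). The oxidative and non-oxidative branches stood at 0.01 ± 0.18 and 0.01 ± 0.19 (SD, n = 8), and Me1 and Idh1 together at 0.19 ± 0.25 (SD, n = 8), with 6 of 8 mice above 0. The 2 scan days disagreed in sign for Me1 (-0.27 and 0.71), Tkt (-0.12 and 0.33), Pgd (-0.19 and 0.28), Rpia (-0.43 and 0.05), G6pdx (-0.38 and 0.25) and H6pd (0.15 and -0.22).

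The effects of the 2 deficiencies were compared directly, as the total ChREBP-KO effect minus the ChREBPβ effect. This difference was negative for 12 of 22 probes, where 8.08% of all probes were negative, and positive for 1, where 7.02% were positive (limma, adjusted p under 0.05). The 12 include the Tkt probe that was not well above background in any total ChREBP-KO mouse. Me1 had a log2 difference of effects of -3.47 (SE 0.40, adjusted p = 3.46e-07), Rpia of -2.04 (SE 0.26, adjusted p = 1.51e-06) and Pgd of -1.86 (SE 0.30, adjusted p = 5.69e-05). Tkt, at -0.94, Idh1, at -0.40, and Taldo1, at -0.30, passed as well on their leading probes. G6pdx did not (-0.70, SE 0.31, adjusted p = 0.128), nor did H6pd (-0.29, SE 0.11, adjusted p = 0.0781), so that in this fit the effects of the 2 deficiencies on these genes were not shown to differ. G6pdx passed with slide as a fixed block (-0.88, adjusted p = 0.0433). H6pd passed when WT replicate 6 or 8 of the ChREBPβ line was left out, at -0.33 (adjusted p = 0.0343) and -0.34 (adjusted p = 0.0229). The positive probe was the second of Pgls, at 0.18 (adjusted p = 0.0400). It lost its call without any 1 of 12 of the 31 mice, as did a second Pgd probe, and the second probes of Idh1 and Taldo1 without any 1 of 16, so that 9 to 12 probes were negative when 1 mouse was left out.

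WT littermates of the 2 lines are the ground for this comparison, and 17.0% of all probes differed between them. Among the members 1 of 22 probes did, a probe of another Pgd transcript at 0.32 (adjusted p = 0.0280). Rpia was at 0.45 on its leading probe (adjusted p = 0.0835), and it passed when replicate 5 of the WT littermates of either line was left out, at 0.56 (adjusted p = 0.0218) without the mouse of the ChREBPβ line and 0.55 (adjusted p = 0.0327) without the mouse of the total ChREBP line. These WT mice are the controls of both effects above, so the comparisons share samples. Values here are the WT mice of the total ChREBP line minus those of the ChREBPβ line.

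Mice of 1 genotype differed from each other, and the strongest responders did so in step. Over the 31 mice, with the mean of each group removed, 7 of 45 pairs of leading probes correlated (permutation within groups, Benjamini-Hochberg over the 45 pairs), all 7 positively. Of these, 6 pairs, all those among Me1, Pgd, Rpia and Tkt, passed on ranks too and kept their sign on both scan days. Tkt and Me1 had r = 0.843 (rho = 0.787), and Pgd and Me1 r = 0.820 (rho = 0.752), each with an unadjusted permutation p of 1e-05 for r, the smallest these permutations can give, and an adjusted p of 9e-05. Pgd with Tkt reached r = 0.790, Rpia with Tkt 0.775, Rpia with Me1 0.747 and Pgd with Rpia 0.697. Without the 2 mice farthest from the median of the first gene the 6 values were 0.627 to 0.809. G6pdx with Pgd had r = 0.551 (adjusted permutation p = 0.0415) but missed on ranks (rho = 0.447, adjusted permutation p = 0.117). Pairs that share a mouse share its array, so that these values hold what a mouse and its array contribute alike.

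**Figure D4:**
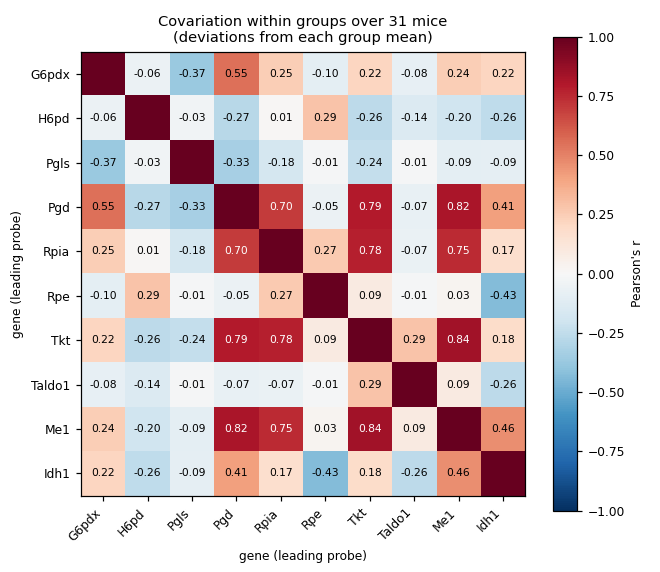
Pearson's r between the leading probes of each pair of the 10 genes over 31 mice, after removal of each group's mean, with r given by color and number. The block among Pgd, Rpia, Tkt and Me1 holds values of 0.697 to 0.843, and outside it the highest is 0.551 (G6pdx with Pgd).

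The genes whose leading probes ran most nearly parallel to each member were read over all 31 arrays, group differences included, as a description. For Me1 the nearest genes with a symbol were Acly (r = 0.976), ATP citrate lyase, and Fasn (r = 0.971), fatty acid synthase. Pgd was closest to Acly (r = 0.970) and Elovl6 (r = 0.960), a fatty acid elongase. Rpia was closest to Rrm2 (r = 0.975), a subunit of ribonucleotide reductase, and Acaca (r = 0.974), acetyl-CoA carboxylase. Tkt ran with Rcbtb2 (r = 0.936) and Me1 (r = 0.934), and Idh1 with Elovl5 (r = 0.939). The best match of G6pdx with a gene symbol was Fabp5 (r = 0.808), that of H6pd Qars (r = 0.843) and that of Pgls Abhd14b (r = 0.767).

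Genes around the pathway were read in 4 lists, on leading probes, of which 14.8% were lower and 14.4% higher over all 23968 genes in total ChREBP-KO mice. Of 10 enzymes and carriers at its edges 7 were kept, and G6pd2, a second gene of glucose-6-phosphate dehydrogenase, was not. Of these 7, 4 were lower and 1 higher, with a median of -0.30. The lower ones were Slc37a4, the glucose-6-phosphate transporter (-2.03, SE 0.13, with its other probe higher), Shpk, sedoheptulokinase (-0.74, SE 0.11), Rbks, ribokinase (-0.36, SE 0.06), and Prps1, which makes the activated ribose of nucleotide synthesis (-0.30, SE 0.06). Pgm2 was higher (0.35, SE 0.06). Of 13 further genes listed for the supply of NADPH or NADP 10 did not pass, and Mthfd2l was lower (-0.26). Mitochondrial Idh2 (0.59, SE 0.08) and Nadk2, an NAD kinase (0.26), were higher, with a list median of 0.04. Mthfd2l lost its call under 1 other scaling of the arrays. Of 18 users of NADPH 4 were lower and 11 higher, with a median of 0.33. Fasn fell most (-3.16, SE 0.19), followed by the steroid reductase Srd5a1 (-0.88), the cholesterol enzyme Dhcr7 (-0.74) and glutathione reductase Gsr (-0.38, named after its value was seen), while Dcxr, xylulose reductase (0.87, SE 0.09), and Por, cytochrome P450 reductase (0.81, SE 0.20), rose most. Hsd11b1, which uses the NADPH made by H6pd, was at -0.02 (SE 0.07, adjusted p = 0.851). Of 5 genes of the citrate and malate shuttle Acly (-2.72, SE 0.26) and Pcx, pyruvate carboxylase (-0.42, SE 0.06), were lower, and 3 did not pass (Slc25a1, Mdh1 and Mdh2, named after their values were seen), with a median of -0.15. In ChREBPβ-deficient mice 0 genes of the 4 lists passed.

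**Figure D5:**
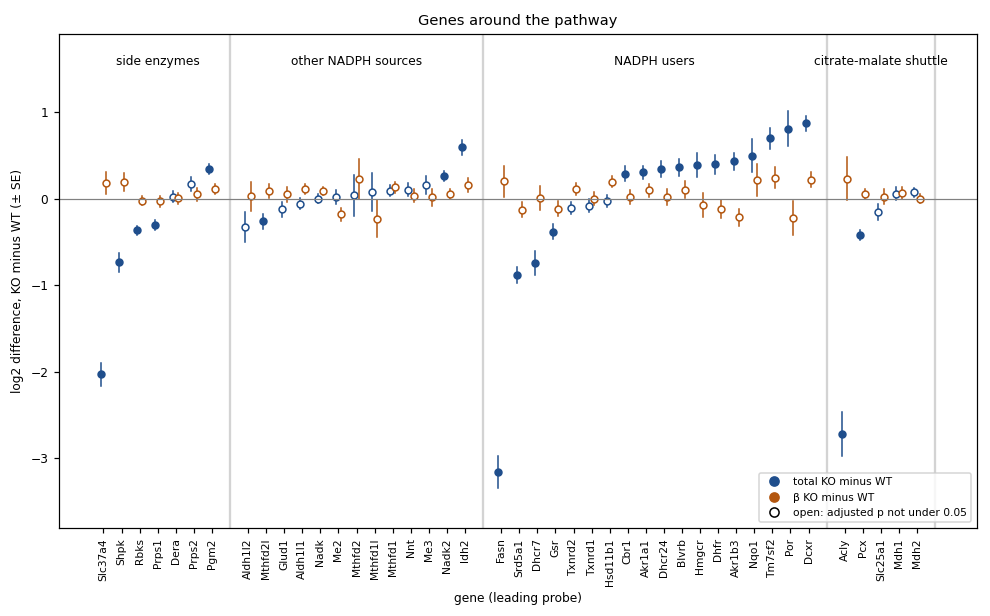
Log2 difference between knockout mice and their WT littermates, with SE, for the leading probe of each gene in the 4 lists around the pathway, in blue for loss of both isoforms and in orange for loss of ChREBPβ, with open points where the adjusted p is not under 0.05. Fasn, Acly and Slc37a4 lie at -2 or lower in blue, 11 NADPH users lie above 0 in filled blue, and all orange points are open.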

How the data were processed

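Liver RNA of 31 mice was hybridized to one-color Agilent arrays, and the deposited scanner files, made by the authors with Feature Extraction 10.10.1.1 per the submitters' processing notes, hold an intensity per spot. The deposited table of log2 values, with the log base inferred from these intensities, holds 36057 probes and was used as an alternative. Median signals were quantile-normalized and log2-transformed here after the authors' scheme (limma 3.58.1, R 4.3.3). A spot counted on an array if it was found, positive, significant and well above background, and spots that counted on 26 arrays, or on 6 of a group, were kept, which left 38721 of 59305 spots and, with the median taken over spots of a probe, 36059 probes. No spot of a member was saturated. All 4 groups entered 1 limma model, with Benjamini-Hochberg adjustment over all probes and a threshold of 0.05. P-values measure the spread between mice, and the number of arrays limits the precision.

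A gene is shown by its probe of highest mean signal, with its other probes beside it. All probes of the 10 members were named, Mlxipl, up to 6 called genes of each list by size of the difference, with Hsd11b1 and G6pd2 whatever their result, and, for most called members, 1 or 2 of the 3 genes most alike. Members and lists were chosen with earlier results of these data known. Covariation used 100000 permutations within groups (Python 3.11.15). Alternatives were other background corrections, scalings, filters, blocks and tests, the deposited values, and leaving out each mouse. The fits were tested on simulated data. Probe positions are those of the files (mm9), and exons were not assigned. Replicate 3 of the total ChREBP-KO group was not analysed here.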

Additional observations from a re-analysis of the deposited data

Results flagged for a closer look

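Of 88 groups of mice examined for the 22 probes, 7 had a mouse far from the others, where chance alone gives about 1 in 20, or 4.4. The numbers that follow are that mouse's gap to its nearest neighbor as a share of the group's range. G6pdx was highest in WT replicate 2 of the ChREBPβ line (0.537, log2 signal 9.948 against 9.205), and Pgd was highest in WT replicate 5 of that line (0.594, 12.72 against 12.05). The second Taldo1 probe was highest in WT replicate 1 of that line (0.542, 12.61 against 12.4). In WT mice of the total ChREBP line the second Pgls probe was lowest in replicate 5 (0.574, 11.71 against 11.81), and the third Pgd probe was lowest in replicate 7 (0.574, 4.952 against 5.321). The second Idh1 probe was highest in WT replicate 2 (0.783, 9.042 against 8.788) and in KO replicate 7 (0.654, 9.055 against 8.514) of the same line.

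The effects of the 2 deficiencies differed by limma's test of the difference on 13 probes. As the total ChREBP-KO effect minus the ChREBPβ effect, the log2 values were -3.47 and -3.398 for the Me1 probes, -2.036 and -1.246 for Rpia, -1.863 and -0.4354 for Pgd, and -0.9407 and -0.5206 for Tkt. The second Tkt value rests on a probe that was not well above background in any of 7 total ChREBP-KO mice, so it is no exact difference, and it ran from -1.92 to -0.23 over the settings. They were -0.3977 and -0.3812 for Idh1, -0.2952 and -0.2408 for Taldo1, and 0.1813 for the second Pgls probe.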

How the results depend on the processing

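Of 810 values recomputed under other settings with all mice kept, 758 kept their direction and side of the threshold, 41 lost and 4 gained a call, and 7 changed sign. The 15 lower member probes of the total ChREBP-KO comparison became 7 when a fold of 1.5 was required too and 12 with median signals scaled, where the second Pgd probe and both other Tkt probes lost their calls, and the 2 higher ones 1 with either scaling to the 75th percentile and 0 with the fold. For the difference of effects the fold left 6 of 12 negative probes. The 1 positive became 0 with the fold, with either scaling and with no filter. Between WT littermates the 1 higher probe became 2 with the processed signal, 3 with the unadjusted Mann-Whitney test, and 0 with the median signal scaled, the filter on all arrays, slide as a fixed block, the fold, or the adjusted Mann-Whitney test. Mthfd2l, the only further NADPH source that was lower, was lost (0) with the median signal scaled, a check chosen after seeing the data. Averaging all probes moved the branch levels to -0.41 (oxidative) and -0.61 (non-oxidative). The causes were not tested.

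Signs changed only in values without a call. Pgls in the ChREBPβ line was -0.018 and -0.023 with the processed and median signal scaled, and Taldo1 was -0.0079 with the latter, as was the difference of effects of the third Rpe probe at -0.005095. Slide as a fixed block gave 0.015 for that probe in the total ChREBP line, and -0.10 for Tkt and -0.21 for Me1 between WT littermates.

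Leaving out 1 mouse gave 14 to 15 lower and 2 to 3 higher probes in the total ChREBP line, 0 in the ChREBPβ line, 9 to 12 negative and 0 to 1 positive differences of effects, and 0 lower and 0 to 2 higher probes between WT littermates. In the total ChREBP line the lists then held 4 lower and 1 higher edge genes, and 0 to 1 lower and 2 higher genes of NADPH or NADP supply. They also held 4 lower and 9 to 11 higher NADPH users, and 2 lower and 0 higher shuttle genes. In the ChREBPβ line they held 0. Signs turned in the ChREBPβ line for G6pdx (range -0.14 to 0.10, above 0 without KO replicate 3, 6 or 7 or WT replicate 2), H6pd (-0.11 to 0.0038, without WT replicate 8) and Pgd (-0.011, without KO replicate 5, to 0.17), between WT littermates for G6pdx (-0.065, without WT replicate 4 of the total ChREBP line, to 0.23), and for the third Rpe probe's difference of effects (-0.027 to 0.046 over all mice).

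Replicate numbers were not taken to pair the mice, since not every same-numbered pair correlated over 0.1. In the total ChREBP line 2 of 7 pairs did (-0.21 to 0.24) and 1 correlated best with its own number. In the ChREBPβ line 6 of 8 did (-0.16 to 0.53) and 4 correlated best with their own number, a hint of pairing from the data in that line. With the replicate number as a block the positive difference of effects (Pgls, 0.19, adjusted p = 0.0553) was lost, leaving 0, and 10549 probes were called in the total ChREBP comparison against 10477 without it. The only call over all probes in the ChREBPβ comparison, on Mlxipl, was also lost with this block.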
